A study of Mus musculus with 54 samples.

Results

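Selenoprotein P (Selenop) and 7 other selenoprotein genes, Gpx1, Gpx4, Txnrd1, Selenow, Selenok, Selenof and Msrb1, were followed across brain macrophages at rest and after lipopolysaccharide (LPS). The 8 genes were taken by symbol from the 33280 symbols of the count tables. These members, and the lists of related genes used below, were chosen with earlier results of these data known. Their counts beside the shares of all genes are therefore descriptive. Selenop was selected on its measured fall after LPS in the macrophages sorted from reporter mice, so values in those libraries are given without a test. Bulk RNA-seq was performed on microglia (MG) and on subdural CNS-associated macrophages, or sdCAMs, which sit in the leptomeninges and around vessels, both sorted from brains devoid of choroid plexuses. The sdCAMs were sorted for CD206, the product of Mrc1, so Mrc1 is no independent check of them. There were 54 libraries in 18 groups of 3, each library from a separate mouse within its group, and the same mouse gave both cell types.

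The mice were wild type (WT), Ccr2-/- (Ccr2 KO in the labels), or carried Ccr2CreERT2/CreERT2 and R26tdT/tdT. In these reporter mice 2 mg tamoxifen activates Cre under control of Ccr2, a chemokine receptor gene of monocytes, and Cre then turns on tdTomato (tdT), so that tdT+ sdCAMs descend from cells with Ccr2 activity. BLZ945 inhibits the CSF1 receptor and depletes brain macrophages, which then repopulate, and CTL is its vehicle. WT and Ccr2-/- mice were untreated and given PBS, treated with CTL and given LPS, or treated with BLZ945 and given LPS. All reporter mice were treated with BLZ945 and given LPS or PBS, and their sdCAMs were split into tdT+ and tdT- cells. The injection came 8 weeks after the end of treatment and 12 h before the cells were harvested. The untreated PBS mice of both genotypes had not received the vehicle, so LPS and CTL cannot be told apart in those comparisons, and the reporter libraries carried another batch label than all the rest.

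Selenoproteins contain selenocysteine, the selenium analogue of cysteine, which is inserted at a UGA codon that would otherwise end translation. Most are enzymes of redox defence. Among the proteins of the genes followed here, selenoprotein P is the one that is secreted and carries many selenocysteines. It delivers selenium to tissues such as brain through receptors of the LDL receptor family. GPX1 and GPX4 are glutathione peroxidases, and GPX4 reduces lipid hydroperoxides in membranes and restrains ferroptosis. TXNRD1 is the cytosolic thioredoxin reductase, MSRB1 reduces oxidised methionine, SELENOW is a small cytosolic protein with a thioredoxin-like fold, and SELENOK and SELENOF reside in the endoplasmic reticulum.

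The selenocysteine codons show how Selenop stands apart from the other members. They are printed in coding sense from GENCODE M21 transcripts, with TGA in capitals and up to 12 bases on each side. Selenop-203, on chromosome 15, has 10 of them between codons 59 and 377 of its 380 codons, and the last 4 lie within 36 bases.
Selenop, codon 59: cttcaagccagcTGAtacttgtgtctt
Selenop, codons 366 to 377: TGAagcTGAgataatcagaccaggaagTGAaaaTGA
Each of the other members has 1 such codon. It lies near the start in Selenow and at codon 612 of the 613 before the stop codon in Txnrd1.
Gpx1, codon 47: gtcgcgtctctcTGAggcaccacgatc
Gpx4, codon 129: gtggcctcgcaaTGAggcaaaactgac
Txnrd1, codon 612 of 613: cagtctggctgcTGAggt
Msrb1, codon 95: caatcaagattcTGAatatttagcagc
Selenow, codon 13: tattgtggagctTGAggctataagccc
Selenok, codon 92 of 94: atggctggtggaTGAggaagg
Selenof, codon 93: gaagtctgcggaTGAaaattggggagg

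Library totals ranged from 1705930 to 11330781 counts, with the shallowest among WT sdCAMs (1705930 to 7699790). The 9 sdCAM markers, with Mrc1 of the sort among them, and 6 MG markers sorted the libraries by their labelled cell type, with 1 exception. In mouse 5 after LPS, tdT+ sdCAMs carried MG markers at 82.6% of the summed level in its MG, against 4.29% and 5.75% in the other tdT+ libraries after LPS. In WT sdCAMs without LPS that share was 12.0%, 18.3% and 34.9%. The MG library of PBS reporter mouse 175 also stood apart from its group in several members. For a pair of libraries the sex-linked transcripts went against the MG of the named mouse. The tdT- library of mouse 1 held 323 CPM of Xist, where MG of mouse 1 held 0, and the tdT+ library of mouse 7 held 128 CPM of Ddx3y, where MG of mouse 7 held 0. Changes in reporter sdCAMs that rest on these libraries are therefore also given without them or with both columns exchanged. In WT sdCAMs, 6 libraries carried an IEG correction mark that the labels do not explain. These were all libraries after CTL and LPS, those of untreated mice 9 and 14, and that of mouse 12 after BLZ945 and LPS. Genes with transcripts under 1000 bases took 11.4 to 36.1% of the counts in marked libraries. In the unmarked libraries, of mice 8, 11 and 15, that share was 3.94 to 6.18%.

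Selenop was an abundant transcript of resting sdCAMs. Levels are CPM, read counts scaled to library depth with TMM factors over all 54 libraries, with the mean ± SD of 3 libraries. Untreated Ccr2-/- sdCAMs had the highest mean of the 18 groups, 6220 ± 111 CPM, followed by tdT- (5416 ± 631) and tdT+ sdCAMs (4937 ± 338) of PBS reporter mice, and each of these neighbours overlapped with the next. Ccr2-/- MG (2334 ± 82.7), WT sdCAMs (1953 ± 1304), reporter MG (1509 ± 1018) and WT MG (1420 ± 90.8) came next without LPS, again with overlap between neighbours but none with the sdCAM groups above. All 11 groups given LPS lay lower, from 635 ± 116 in Ccr2-/- sdCAMs after BLZ945 to 95.4 ± 9.51 CPM in tdT- sdCAMs. Without TMM scaling, 9 of the 18 groups took another place in this order, none of them among the highest 5. Per kilobase of transcript, Selenop stood at 2983 ± 53.3 CPM in untreated Ccr2-/- sdCAMs, against 344 ± 8.85 for Selenof, 152 ± 9.57 for Selenok, 90.7 ± 14.8 for Gpx1 and 80.1 ± 9.57 for Gpx4.

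**Figure D1:**
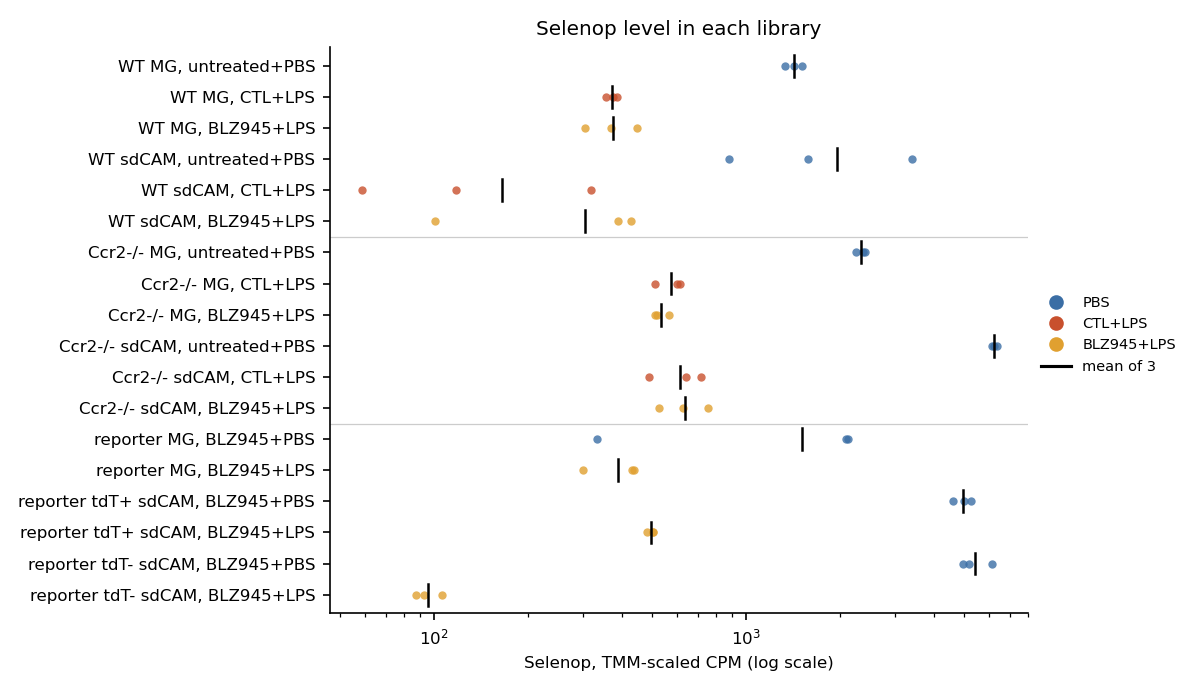
Selenop level in each of the 54 libraries, as TMM-scaled CPM on a log scale. Points are libraries, coloured by condition, and black lines are means of 3. The PBS libraries of Ccr2-/- sdCAMs and of reporter sdCAMs lie between 4580 and 6332 CPM, and the tdT- libraries after LPS between 87.4 and 106 CPM.

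At rest, the cell types were compared within each genotype by edgeR's quasi-likelihood test, with Benjamini-Hochberg adjustment over all genes tested and an adjusted p under 0.05 as the threshold. All 8 members passed the filter on low counts in each comparison of this report. In Ccr2-/- mice 4 members were higher and 1 lower in sdCAMs than in MG, where 22.4% of the 12890 genes tested passed in either direction. In WT mice 1 member was higher and none lower, against 17.4% of 13136 genes.

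In Ccr2-/- mice Selenop had 6216, 6332 and 6110 CPM in sdCAMs and 2371, 2392 and 2239 CPM in MG. The groups did not overlap, and sdCAMs exceeded MG of the same mouse 2.62, 2.65 and 2.73 times (log2 difference 1.41 ± 0.15 SE, edgeR adjusted p = 7.5e-07). In WT mice the 3 sdCAM libraries were widely spread, with 878, 1576 and 3404 CPM, while MG had 1330, 1418 and 1512 CPM. The groups overlapped and the ratio within a mouse was 0.660, 1.11 and 2.25, so no difference was resolved (0.45, 95% interval -0.66 to 1.56, edgeR adjusted p = 0.62). The WT sdCAM library with the highest Selenop, that of mouse 15, was also the one with the highest MG marker share.

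Txnrd1 had the opposite order in Ccr2-/- mice, with 18.3, 28.1 and 11.1 CPM in sdCAMs and 55.6, 73.3 and 57.2 CPM in MG (log2 difference -1.70 ± 0.29, edgeR adjusted p = 2.1e-04). Selenow was higher in Ccr2-/- sdCAMs, with 69, 48.3 and 51.2 CPM against 16.5, 15.0 and 21.7 CPM (1.66 ± 0.20, edgeR adjusted p = 4.4e-06). Selenof was higher there by 0.44 ± 0.11 (edgeR adjusted p = 0.0056) and Gpx4 by 0.66 ± 0.21 (edgeR adjusted p = 0.031). With the mouse as a block the Gpx4 call was lost (edgeR adjusted p = 0.077). Msrb1 was the member that passed in WT mice, with 14.8, 8.12 and 8.76 CPM in sdCAMs and 3.93, 2.75 and 3.14 CPM in MG (1.71 ± 0.48, edgeR adjusted p = 0.021), and it missed the threshold with the mouse as a block (1.67, adjusted p = 0.0501). None of these groups overlapped. The Msrb1 call was also lost without the sdCAM library of mouse 9 or any of the 3 MG libraries (adjusted p 0.0564 to 0.104), and the Gpx4 call without any 1 of the 6 libraries other than the sdCAMs of mouse 1m (adjusted p 0.0622 to 0.108). Gpx1 had the largest log2 difference in WT mice, 1.91, but did not pass there, except under 2 of 13 alternatives. Its means were 133 ± 97.1 CPM in sdCAMs and 36.1 ± 7.15 CPM in MG.

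After LPS, Selenop fell in every tested population of WT and Ccr2-/- mice, while Txnrd1, Selenow and Msrb1 were higher in each of them, with Txnrd1 in WT sdCAMs short of the threshold. CTL and LPS libraries were compared with untreated PBS libraries of the same genotype and cell type. In WT MG, 3 members were higher and 2 lower, where 16.7% and 14.2% of 11789 genes passed in those directions. In Ccr2-/- MG, 3 were higher and 3 lower (19.4% and 15.5% of 11558 genes), and in Ccr2-/- sdCAMs 3 were higher and 4 lower (15.8% and 13.1% of 11941 genes). In WT sdCAMs 3 were higher and 1 lower, where 3.7% and 2.62% of 10504 genes passed. In bulk RNA, fewer cells of a type and less RNA per cell cannot be told apart.

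**Figure D2:**
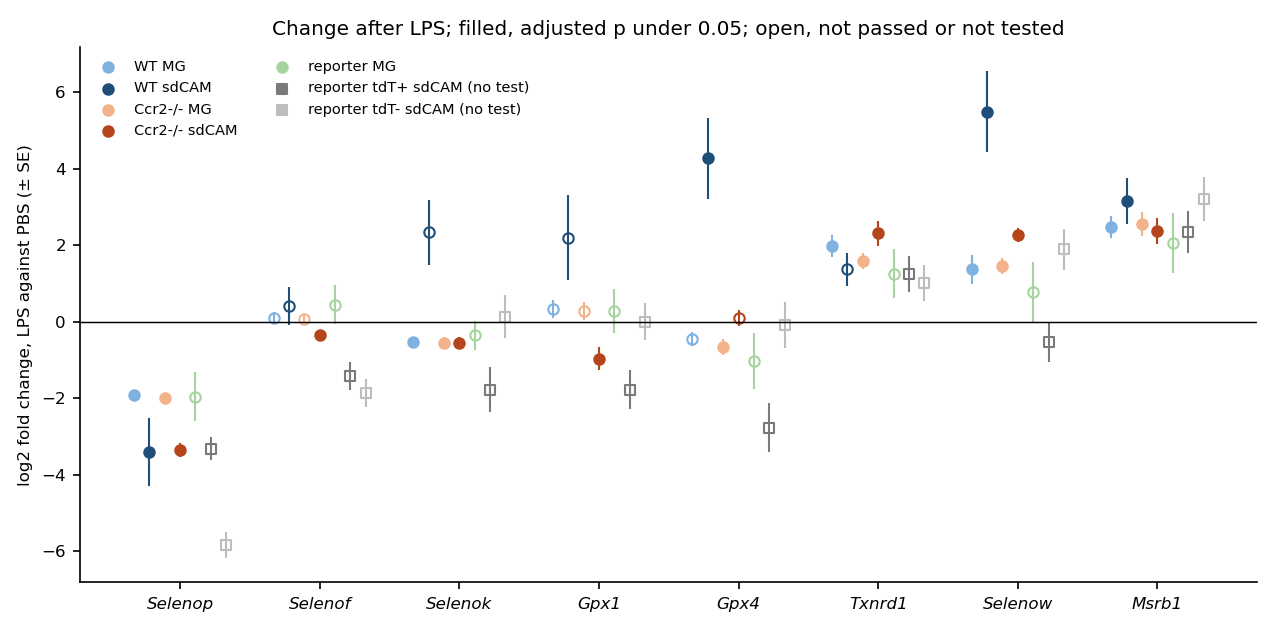
Log2 fold change after LPS (± SE) of each member in 7 populations. Filled points passed an adjusted p of 0.05, open circles did not, and squares are reporter sdCAMs, given without a test. Selenop lies between -1.92 and -5.83 in all 7, and Msrb1 between 2.05 and 3.21.

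Selenop in WT MG went from 1330, 1418 and 1512 CPM to 375, 386 and 356 CPM after LPS. In Ccr2-/- MG it went from 2371, 2392 and 2239 to 612, 601 and 511 CPM. The libraries within each group were close together and the groups far apart, and the log2 fold changes were -1.92 ± 0.15 (edgeR adjusted p = 4.7e-06) and -2.00 ± 0.12 (edgeR adjusted p = 6.8e-08), a level about 3.8 and 4.0 times lower.

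Selenop in Ccr2-/- sdCAMs went from 6216, 6332 and 6110 CPM to 486, 714 and 643 CPM, 10.1 times lower (log2 fold change -3.34 ± 0.18, edgeR adjusted p = 7.4e-08). The level after LPS was thus close to that of MG, and the ratio of sdCAMs to MG within a mouse was 0.795, 1.19 and 1.26. The fall was larger in sdCAMs than in MG by the test of the difference itself, with an interaction of -1.31 ± 0.21 (edgeR adjusted p = 3.8e-04, and -1.32 with adjusted p = 0.0011 with the mouse as a block). Selenop was the 1 member of 8 that passed this test in Ccr2-/- mice, where 8.14% of 12890 genes passed. With DESeq2, which added Selenow and Selenof, 3 of 8 members and 1473 genes passed. Gpx1 passed without the filter on low counts, in a fit of the libraries compared and with the mouse as a block, and Gpx4 in the fit of the libraries compared. Without 1 library, Gpx1 passed when the sdCAMs of V4f were left out, and Selenow when the sdCAMs of 1m or the MG of V4f were. The summed sdCAM markers of the same libraries fell as well, from 21404 to 22476 CPM without LPS to 7495 to 8164 CPM after it, and the MG markers of Ccr2-/- MG from 43930 to 45030 to 15238 to 17933 CPM. No marker of either list was at 0 in its own cell type. The neutrophil markers S100a8, S100a9, Retnlg and Ly6g in Ccr2-/- sdCAMs summed to at most 2.58 CPM before and 59.2 to 90.0 CPM after LPS. In each of these libraries after LPS, 2 of those markers were at 0. The part of these changes in the fall of Selenop was not tested.

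In WT sdCAMs Selenop went from 878, 1576 and 3404 CPM to 58.5, 317 and 118 CPM. The groups did not overlap, but the libraries of each group differed several-fold among themselves (log2 fold change -3.41 ± 0.89, edgeR adjusted p = 0.045). The call was lost without any 1 of the 6 libraries compared, with adjusted p-values of 0.060 to 0.160, while the fold change stayed between -4.27 and -2.82. The share of counts in genes with short transcripts (under 1000 bases) was 18.5%, 11.4% and 3.94% in the untreated libraries, in the order of their Selenop values, and 26.5 to 32.5% after LPS. Neutrophil markers summed to 0 to 79.4 CPM before and 129 to 1121 CPM after LPS, where 2 or 3 of those markers were at 0 in each library. After BLZ945 and LPS, the library of mouse 12, with a short-transcript share of 36.1%, had 101 CPM of Selenop, and those of mice 8 and 11, with 6.18% and 4.41%, had 426 and 388 CPM. The part of these measures in the fall of Selenop was not tested. Without TMM scaling the means were 2109 ± 1714 and 64.1 ± 47.2 CPM. The difference in the fall between WT cell types did not pass (-1.59 ± 0.81, edgeR adjusted p = 0.31), and 1 of 8 members, Gpx4, passed that test, against 1.32% of 13136 genes. With DESeq2, 2 of 8 members, Selenow and Selenok, and 870 genes passed. Selenow and Selenok each passed under 3 of 19 alternatives in all.

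In reporter MG, Selenop had 2114, 334 and 2079 CPM after PBS and 300, 436 and 432 CPM after LPS. The library of mouse 175 lay within the LPS range, and the fold change did not pass (-1.96 ± 0.64, edgeR adjusted p = 0.21). Without that library it was -2.43 ± 0.31 (edgeR adjusted p = 0.0070). None of the 8 members passed in reporter MG, where 1.08% of 10882 genes did. At an unadjusted p under 0.05 Selenop and Msrb1 passed there (2 of 8, against 13.9% of genes), and DESeq2 passed 1 of 8 members and 855 genes.

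In reporter sdCAMs, the libraries that led to the choice of Selenop, tdT+ cells had 4580, 5251 and 4978 CPM after PBS and 503, 482 and 502 CPM after LPS, a log2 fold change of -3.31 ± 0.30. The tdT- cells had 5168, 6132 and 4946 CPM after PBS and 87.4, 106 and 92.9 CPM after LPS, a change of -5.83 ± 0.34. The PBS libraries of both populations overlapped, and after LPS every tdT- library lay below every tdT+ library. Exchanging the 2 doubtful columns gave -3.79 for tdT+ and -4.54 for tdT- cells, with LPS ranges of 87.4 to 503 and 92.9 to 502 CPM that overlapped. The MG-like tdT+ library of mouse 5 did not stand apart in Selenop, and without it the tdT+ change was -3.31. The tdT- libraries after LPS also held more counts in genes with short transcripts, 18.6 to 21.4% against 3.85 to 5.32% in tdT+ libraries, and 268 to 1422 CPM of neutrophil markers against 10.8 to 56.3 CPM. With the columns exchanged, these ranges overlapped, at 3.85 to 21.4% and 34.1 to 746 CPM in tdT- and 4.39 to 20.8% and 10.8 to 1422 CPM in tdT+ cells. As named, 2 or 3 of the neutrophil markers were at 0 in each tdT- library after LPS, and 3 in each tdT+ library. The part of these measures in the lower Selenop level was not tested.

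Msrb1, the methionine sulfoxide reductase, had the most even rise. It went from 3.93, 2.75 and 3.14 CPM to 21.9, 13.9 and 18.6 CPM in WT MG (2.47 ± 0.29, edgeR adjusted p = 9.5e-05) and from 5.07, 5.14 and 4.61 to 28.4, 33.5 and 24.0 CPM in Ccr2-/- MG (2.55 ± 0.32, edgeR adjusted p = 3.7e-05). In Ccr2-/- sdCAMs it went from 8.47, 5.23 and 9.73 to 46.1, 29.7 and 45.4 CPM (2.37 ± 0.35, edgeR adjusted p = 2.4e-04). In WT sdCAMs it went from 14.8, 8.12 and 8.76 to 52.1, 124 and 84.5 CPM (3.15 ± 0.59, edgeR adjusted p = 0.015). No pair of groups overlapped. The call in WT sdCAMs was lost without mouse 6 of the LPS group or mouse 14 or 15 of the untreated group (adjusted p 0.0556 to 0.0704). The interaction between cell type and LPS was 0.59 ± 0.65 in WT and -0.15 ± 0.48 in Ccr2-/- mice, with 95% intervals of -0.69 to 1.87 and -1.10 to 0.79.

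Txnrd1, the thioredoxin reductase, rose in MG from 33.9, 45.6 and 49.1 to 262, 110 and 134 CPM in WT mice (1.98 ± 0.28, edgeR adjusted p = 3.8e-04) and from 55.6, 73.3 and 57.2 to 190, 158 and 204 CPM in Ccr2-/- mice (1.59 ± 0.22, edgeR adjusted p = 7.4e-05). In Ccr2-/- sdCAMs it rose from 18.3, 28.1 and 11.1 to 90.3, 116 and 78.4 CPM (2.31 ± 0.32, edgeR adjusted p = 1.5e-04). In WT sdCAMs it had 27.7, 44.7 and 50.3 CPM before and 119, 68.7 and 98.3 CPM after LPS. The WT groups did not overlap either, but the test did not pass (1.37 ± 0.42, edgeR adjusted p = 0.077, and 0.032 with DESeq2).

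Selenow rose in MG by 1.37 ± 0.38 in WT (edgeR adjusted p = 0.017) and by 1.46 ± 0.22 in Ccr2-/- mice (edgeR adjusted p = 1.5e-04). In Ccr2-/- sdCAMs it went from 69, 48.3 and 51.2 to 256, 270 and 284 CPM (2.26 ± 0.18, edgeR adjusted p = 1.8e-06). In WT sdCAMs it went from 37.4, 26.0 and 13.1 to 666, 1670 and 854 CPM (5.49 ± 1.05, edgeR adjusted p = 0.016). All 4 pairs of groups were separate. The call in WT MG was lost without mouse 1 after LPS or mouse 14 or 15 before it (adjusted p 0.0682 to 0.0762), and that in WT sdCAMs without any 1 of the 3 untreated libraries (adjusted p 0.0519 to 0.0805). The WT sdCAM levels after LPS lay above those of all other CTL and LPS libraries, and the interaction in WT mice was 4.02 ± 1.02 (edgeR adjusted p = 0.059). That interaction passed under 3 of 19 alternatives, DESeq2 among them.

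Gpx4 rose after LPS in WT sdCAMs, and the change there differed from that in WT MG. In WT sdCAMs it went from 38.6, 26.0 and 15.8 to 232, 962 and 246 CPM after LPS, with no overlap (4.27 ± 1.07, edgeR adjusted p = 0.040). In WT MG it had 32.0, 32.2 and 27.9 CPM before and 19.4, 25.4 and 22.1 CPM after LPS, also with no overlap (-0.45 ± 0.19, edgeR adjusted p = 0.092). The interaction was 4.63 ± 1.06 (edgeR adjusted p = 0.038). In Ccr2-/- mice Gpx4 fell in MG, from 47.4, 49.6 and 53.6 to 34.3, 30.0 and 29.4 CPM (-0.66 ± 0.21, edgeR adjusted p = 0.027), and had 68.7, 85.8 and 84.5 CPM before and 80.5, 75.1 and 99.7 CPM after LPS in sdCAMs (0.09 ± 0.20, 95% interval -0.31 to 0.49). Leaving out any 1 of the 6 libraries compared ended the call in WT sdCAMs (adjusted p 0.0658 to 0.137) and that in Ccr2-/- MG (0.0513 to 0.0918), and leaving out any of 9 of the 12 libraries ended that of the interaction (0.0765 to 0.104).

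Within each treatment, Gpx4 and Selenow in WT sdCAMs were mostly higher where short transcripts held a larger share of counts. The annotated transcripts of Gpx4 and Selenow are 995 and 736 bases long, the shortest of the members. That share was 26.5 to 32.5% in WT sdCAMs after CTL and LPS, 3.94 to 18.5% without LPS, and 5.67 to 9.53% in all Ccr2-/- sdCAMs. Among WT sdCAMs after BLZ945 and LPS, the library of mouse 12 had a share of 36.1%, with 465 CPM of Gpx4 and 843 CPM of Selenow. The libraries of mice 8 and 11 had shares of 6.18% and 4.41%, with 43.9 and 42.8 CPM of Gpx4 and 95.9 and 101 CPM of Selenow. The untreated library of mouse 9 lay below both, with 38.6 CPM of Gpx4 and 37.4 CPM of Selenow at a share of 18.5%. Untreated mouse 15 had 15.8 and 13.1 CPM at 3.94%. Selenok, whose annotated transcript has 1678 bases, was also higher in mouse 12, with 500 CPM against 103 and 46.4 CPM in mice 8 and 11. In the untreated libraries it ran the other way, with 103, 111 and 154 CPM at shares of 18.5%, 11.4% and 3.94%. With BLZ945 and LPS in place of CTL and LPS, a comparison chosen after seeing the data, none of the 8 members passed edgeR's test in WT sdCAMs, where 1.91% of genes (201) did. The changes were 2.84 ± 1.00 for Gpx4 (edgeR adjusted p = 0.19), 3.81 ± 0.97 for Selenow (0.072), 2.40 ± 0.58 for Msrb1 (0.059) and -2.59 ± 0.85 for Selenop (0.157). The part of the short-transcript share in the rise of Gpx4 and Selenow was not tested.

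**Figure D3:**
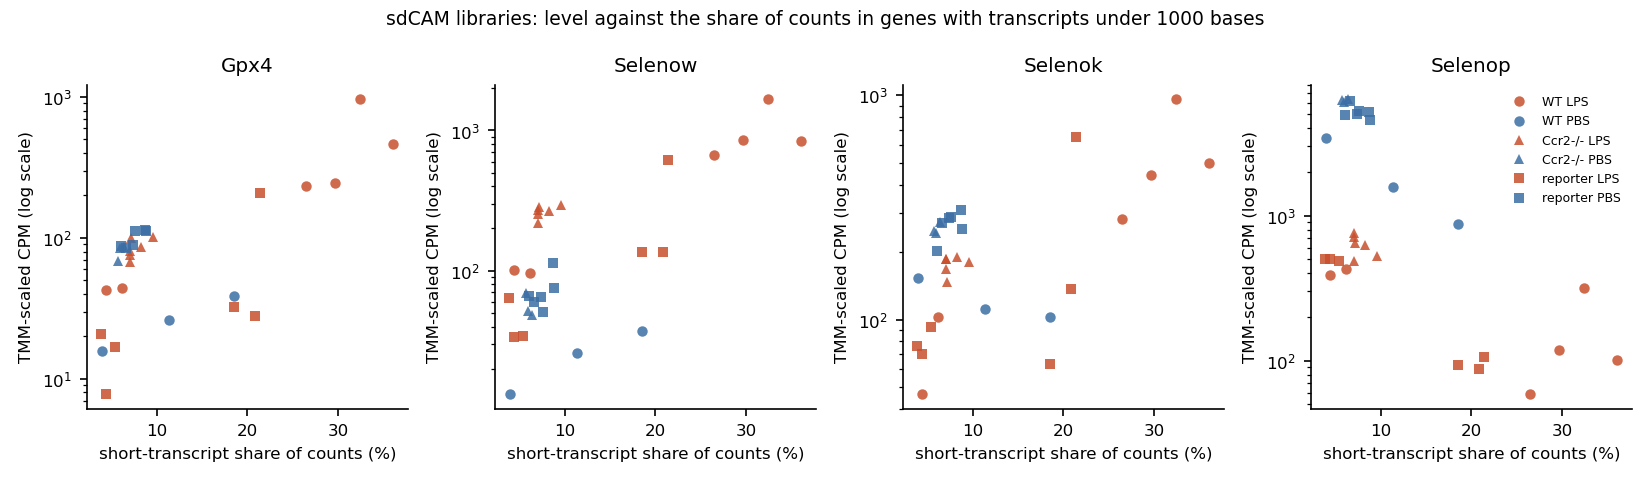
Level of Gpx4, Selenow, Selenok and Selenop (TMM-scaled CPM, log scale) in each sdCAM library against the percent of its counts in genes with transcripts under 1000 bases. Circles are WT, triangles Ccr2-/- and squares reporter libraries, red after LPS and blue after PBS. The 4 WT libraries with shares of 26.5 to 36.1% have the highest Gpx4 levels, 232 to 962 CPM.

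Gpx1, the cytosolic glutathione peroxidase, passed in 1 of the LPS comparisons, that of Ccr2-/- sdCAMs, falling from 79.8, 111 and 101 to 37.8, 42.1 and 70.3 CPM (-0.96 ± 0.30, edgeR adjusted p = 0.028). The groups were separate, but the call was lost without mouse 3m or 5f before or V1m or V2m after LPS (adjusted p 0.0821 to 0.126), and with BLZ945 and LPS in their place, at 76.8, 62.5 and 126 CPM, the groups overlapped (-0.16, adjusted p = 0.73). In MG the change was 0.34 ± 0.23 in WT and 0.28 ± 0.25 in Ccr2-/- mice. In WT sdCAMs the libraries after LPS ranged from 137 to 1284 CPM and overlapped with those before, at 72.7 to 245 CPM.

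Of the members of the endoplasmic reticulum, Selenok, which works with the palmitoyltransferase DHHC6, fell slightly in 3 populations. In WT MG it went from 111, 101 and 94.2 to 68.1, 71.8 and 71.4 CPM (-0.53 ± 0.14, edgeR adjusted p = 0.013), in Ccr2-/- MG from 208, 198 and 227 to 144, 141 and 142 CPM (-0.55 ± 0.16, edgeR adjusted p = 0.017) and in Ccr2-/- sdCAMs from 249, 273 and 242 to 187, 187 and 148 CPM (-0.55 ± 0.15, edgeR adjusted p = 0.018). These groups did not overlap. The calls were lost in WT MG without mouse 9 (adjusted p = 0.0539), in Ccr2-/- MG without mouse 5f, V1m or V4f (0.0561 to 0.0744) and in Ccr2-/- sdCAMs without mouse 3m or V4f (0.0657 to 0.0892). With BLZ945 and LPS in place of CTL and LPS, Selenok no longer passed in MG, at -0.22 in WT (edgeR adjusted p = 0.25) and -0.33 in Ccr2-/- mice (0.12). In WT sdCAMs Selenok had 103, 111 and 154 CPM before and 282, 960 and 439 CPM after LPS (2.33 ± 0.84, edgeR adjusted p = 0.11), which passed without the filter on low counts (0.021), in a fit of the libraries compared (0.023) and with DESeq2 (0.030). Selenof, which binds the folding sensor UGGT, was the steadiest member in MG, with changes of 0.11 ± 0.15 in WT and 0.08 ± 0.12 in Ccr2-/- mice and 95% intervals of -0.18 to 0.39 and -0.15 to 0.31. In Ccr2-/- sdCAMs it fell from 526, 506 and 532 to 378, 419 and 428 CPM (-0.35 ± 0.12, edgeR adjusted p = 0.0498), a call that was lost without any 1 of the 6 libraries (adjusted p 0.0862 to 0.212) and with BLZ945 and LPS in place of CTL and LPS (-0.23, adjusted p = 0.20).

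**Figure D4:**
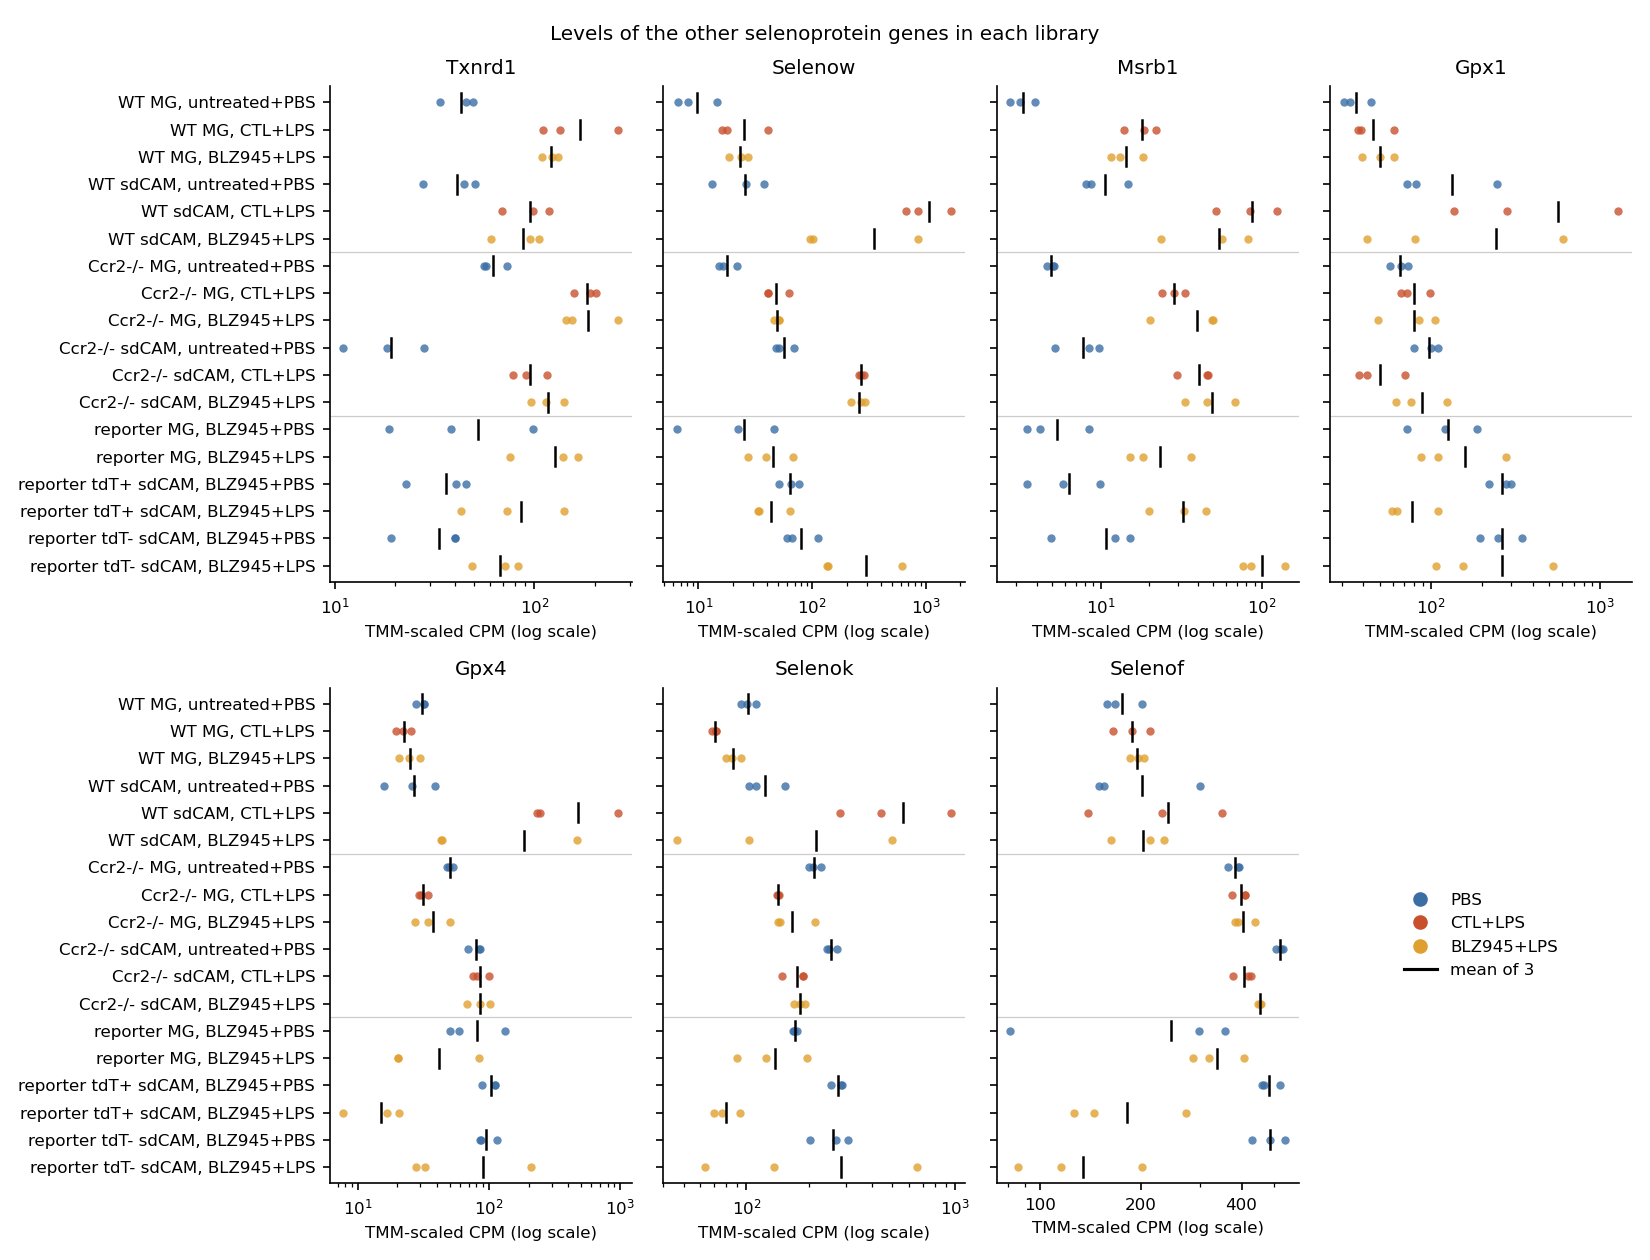
Levels of the other 7 members in each library, as TMM-scaled CPM on log scales, with black lines at the mean of 3. Txnrd1, Selenow and Msrb1 lie higher after LPS in MG of all 3 genotypes by their means, and Gpx4 and Selenow reach 962 and 1670 CPM in WT sdCAMs after CTL and LPS.

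In reporter sdCAMs the other members are described without a test, since the same libraries had chosen Selenop. In tdT+ cells Gpx4 had 111, 111 and 88.5 CPM after PBS and 7.76, 16.8 and 20.7 CPM after LPS, a change of -2.77 ± 0.65. Gpx1 (-1.77 ± 0.50), Selenok (-1.78 ± 0.59) and Selenof (-1.41 ± 0.37) were lower there too. Without the MG-like library of mouse 5 these 3 changes were -2.13, -1.92 and -1.86, and that of Gpx4 was -2.86. With the columns exchanged the changes of Gpx1, Selenok and Selenof were -1.53, -1.46 and -1.52. Selenow did not rise in tdT+ cells as named, with a change of -0.54 ± 0.52 and groups that overlapped. Its change there was -0.92 to -0.39 without 1 library and reached 0.084 under another alternative. Txnrd1 changed by 1.24 ± 0.47 in tdT+ cells, again with overlap, and by 1.02 ± 0.47 in tdT- cells, without overlap. In tdT- cells Gpx4 after LPS was 28.0, 207 and 32.5 CPM, so that 1 library, that of mouse 5, lay above the PBS range and both others below it. The same library held the highest tdT- values after LPS of Gpx1 (527 CPM), Selenok (654) and Selenow (612). The tdT- change of Gpx4 was -0.09 ± 0.60 with that library and -1.69 ± 0.41 without it, that of Gpx1 0.00 and -1.04, that of Selenok 0.13 and -1.40, and that of Selenow 1.89 and 0.74. Msrb1 was higher after LPS in both populations, by 2.34 ± 0.55 in tdT+ and 3.21 ± 0.56 in tdT- cells. With the columns exchanged the Msrb1 changes were 2.85 and 2.99, and that of Gpx4 was -2.56 in tdT+ and -0.13 in tdT- cells.

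Prior treatment with BLZ945 gave no member that passed among mice given LPS, but in WT sdCAMs this rested on 1 library. None of the 8 passed in WT MG, WT sdCAMs, Ccr2-/- MG or Ccr2-/- sdCAMs, where 0.0763%, 0%, 0.0173% and 0% of genes did. Without the library of mouse 12 after BLZ945 and LPS, the one with a short-transcript share of 36.1%, 6.97% of genes (788) and 3 of 8 members passed in WT sdCAMs. These were Gpx4 (-3.54 ± 0.76, edgeR adjusted p = 0.016), Selenow (-3.52 ± 0.70, edgeR adjusted p = 0.012) and Selenok (-2.98 ± 0.67, edgeR adjusted p = 0.020), all lower than after CTL and LPS, while Selenop was at 1.23 ± 0.73 (edgeR adjusted p = 0.37). The remaining libraries, of mice 8 and 11, had short-transcript shares of 6.18% and 4.41%, against 26.5 to 32.5% after CTL and LPS. They also lacked the IEG correction mark, which mouse 12 and all libraries after CTL and LPS carried. The part of the share and the mark in these differences was not tested. No other omission of 1 library gave a member that passed in these comparisons. The 0 calls of edgeR in sdCAMs compare with 758 genes (WT) and 998 genes (Ccr2-/-) at an unadjusted p under 0.05 and with 11 and 88 genes passed by DESeq2. Selenop had 447, 304 and 368 CPM in WT MG after BLZ945 and LPS, and 627, 756 and 524 CPM in Ccr2-/- sdCAMs, within or around the range after CTL and LPS. The 95% intervals of its log2 difference were -0.27 to 0.30 in WT MG, -0.35 to 0.11 in Ccr2-/- MG and -0.30 to 0.35 in Ccr2-/- sdCAMs, but -0.77 to 2.41 in WT sdCAMs, which left room for a large difference there. The largest log2 difference of the other members outside WT sdCAMs was 0.80, that of Gpx1 in Ccr2-/- sdCAMs, which did not pass. At an unadjusted p under 0.05, Selenok in WT MG and Gpx1 in Ccr2-/- sdCAMs would have passed. That was 1 of 8 members in each, against 6.58% and 8.36% of genes. DESeq2 passed none of the 8 in any of these comparisons.

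The genes around the selenoproteins were followed from lists, whose counts are to be read against the shares of all genes that passed higher and lower, 16.7% and 14.2% in WT MG, 19.4% and 15.5% in Ccr2-/- MG, 15.8% and 13.1% in Ccr2-/- sdCAMs and 3.7% and 2.62% in WT sdCAMs. In reporter MG, where 1.08% of genes passed, no gene of any list did. Of 16 further selenoprotein genes 11 were tested in each of these comparisons, and 3 were higher and 1 lower in WT MG, 4 and 1 in Ccr2-/- MG, 2 and 2 in Ccr2-/- sdCAMs and none in WT sdCAMs. Their median log2 fold changes were 0.39, 0.51, -0.14 and 0.67, beside 0.02, 0.00, -0.05 and -0.08 over all genes tested. Txnrd2, the mitochondrial thioredoxin reductase, fell where its cytosolic relative Txnrd1 rose, by 0.75 ± 0.21 in WT MG (edgeR adjusted p = 0.018), 0.58 ± 0.21 in Ccr2-/- MG (0.043) and 1.11 ± 0.28 in Ccr2-/- sdCAMs (0.0091) on the log2 scale. Selenos, an endoplasmic reticulum selenoprotein, rose in Ccr2-/- MG (0.58 ± 0.12, edgeR adjusted p = 0.0021) and Ccr2-/- sdCAMs (0.97 ± 0.15, edgeR adjusted p = 3.7e-04). Gpx3, the secreted glutathione peroxidase, was a transcript of sdCAMs, with 159 ± 47.3 CPM in untreated WT sdCAMs and 513 ± 64.7 in Ccr2-/- sdCAMs against 0.303 ± 0.440 and 0.492 ± 0.343 CPM in MG. After LPS it rose in Ccr2-/- sdCAMs to 1084 ± 237 CPM (1.08 ± 0.24, edgeR adjusted p = 0.0045), where Selenop fell.

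Msrb2, a methionine sulfoxide reductase that uses cysteine in place of selenocysteine, fell in all 4 populations in which its relative Msrb1 rose. Its means went from 54.8 ± 8.67 to 14.5 ± 7.86 CPM in WT MG (-1.91 ± 0.39, edgeR adjusted p = 0.0036) and from 81.9 ± 8.58 to 24.4 ± 3.35 CPM in Ccr2-/- MG (-1.73 ± 0.34, edgeR adjusted p = 0.0013). In sdCAMs they went from 52.2 ± 20.6 to 6.25 ± 1.88 CPM in WT mice (-2.93 ± 0.61, edgeR adjusted p = 0.021) and from 36.5 ± 6.56 to 5.71 ± 2.56 CPM in Ccr2-/- mice (-2.67 ± 0.61, edgeR adjusted p = 0.0057). No pair of groups overlapped. Of 7 such cysteine homologues, 2 to 4 were tested and Msrb2 was the only one that passed in each of these 4 comparisons. In reporter MG it did not pass.

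Of 16 partner genes of the glutathione and thioredoxin systems, all tested, 9 were higher and none lower in WT MG, 9 and 1 in Ccr2-/- MG, 7 and 3 in Ccr2-/- sdCAMs and 3 and 0 in WT sdCAMs. Glrx (glutaredoxin), Prdx5 and Prdx6 (peroxiredoxins) rose in all 4. Prdx5 in Ccr2-/- sdCAMs rose from 202 ± 12.7 to 1404 ± 106 CPM (2.80 ± 0.14, edgeR adjusted p = 3.1e-08), Gsr, the glutathione reductase, from 43.4 ± 4.72 to 465 ± 21.9 CPM (3.42 ± 0.19) and Glrx from 16.3 ± 6.06 to 428 ± 75.0 CPM (4.71 ± 0.31). Txnip, which binds and inhibits thioredoxin, fell there from 1054 ± 102 to 316 ± 40.6 CPM (-1.74 ± 0.17), and both subunits of the enzyme that starts glutathione synthesis fell, Gclc by 1.22 ± 0.28 and Gclm by 1.06 ± 0.34. In MG Slc7a11, the cystine importer, rose by 5.40 ± 1.00 in WT and 4.27 ± 0.73 in Ccr2-/- mice.

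Of 10 genes of the selenocysteine insertion machinery, all tested, 1 was higher in WT MG (Trnau1ap, 0.82 ± 0.22), 2 were higher and 1 lower in Ccr2-/- MG, and none passed in sdCAMs of either genotype, so that the shares in MG were close to those over all genes. In Ccr2-/- MG these were Trnau1ap (1.17 ± 0.27), Sepsecs (0.96 ± 0.27) and Secisbp2l (-0.54 ± 0.15). Of 10 genes of the NRF2 pathway, 8 or 9 were tested, and 3 were higher in WT MG, 4 in Ccr2-/- MG, 4 in Ccr2-/- sdCAMs and none in WT sdCAMs, with none lower. They included Pgd and G6pdx of the pentose phosphate pathway, with Pgd at 1.03 ± 0.17 in WT MG, 1.31 ± 0.12 in Ccr2-/- MG and 0.72 ± 0.16 in Ccr2-/- sdCAMs, and Hmox1, heme oxygenase, at 1.01 ± 0.24 in Ccr2-/- sdCAMs. Of 8 endoplasmic reticulum partners of Selenok, Selenof and Selenos, 7 or 8 were tested, and 3 were higher in Ccr2-/- sdCAMs (Zdhhc6, which encodes DHHC6, by 1.31 ± 0.16, Vcp by 0.80 ± 0.17 and Derl2 by 0.58 ± 0.20) and none passed in the other populations. The receptors of selenoprotein P, Lrp8 and Lrp2, were near the detection limit, and the highest group mean, that of Lrp8 in tdT+ sdCAMs after LPS, was 4.26 ± 4.28 CPM.

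**Figure D5:**
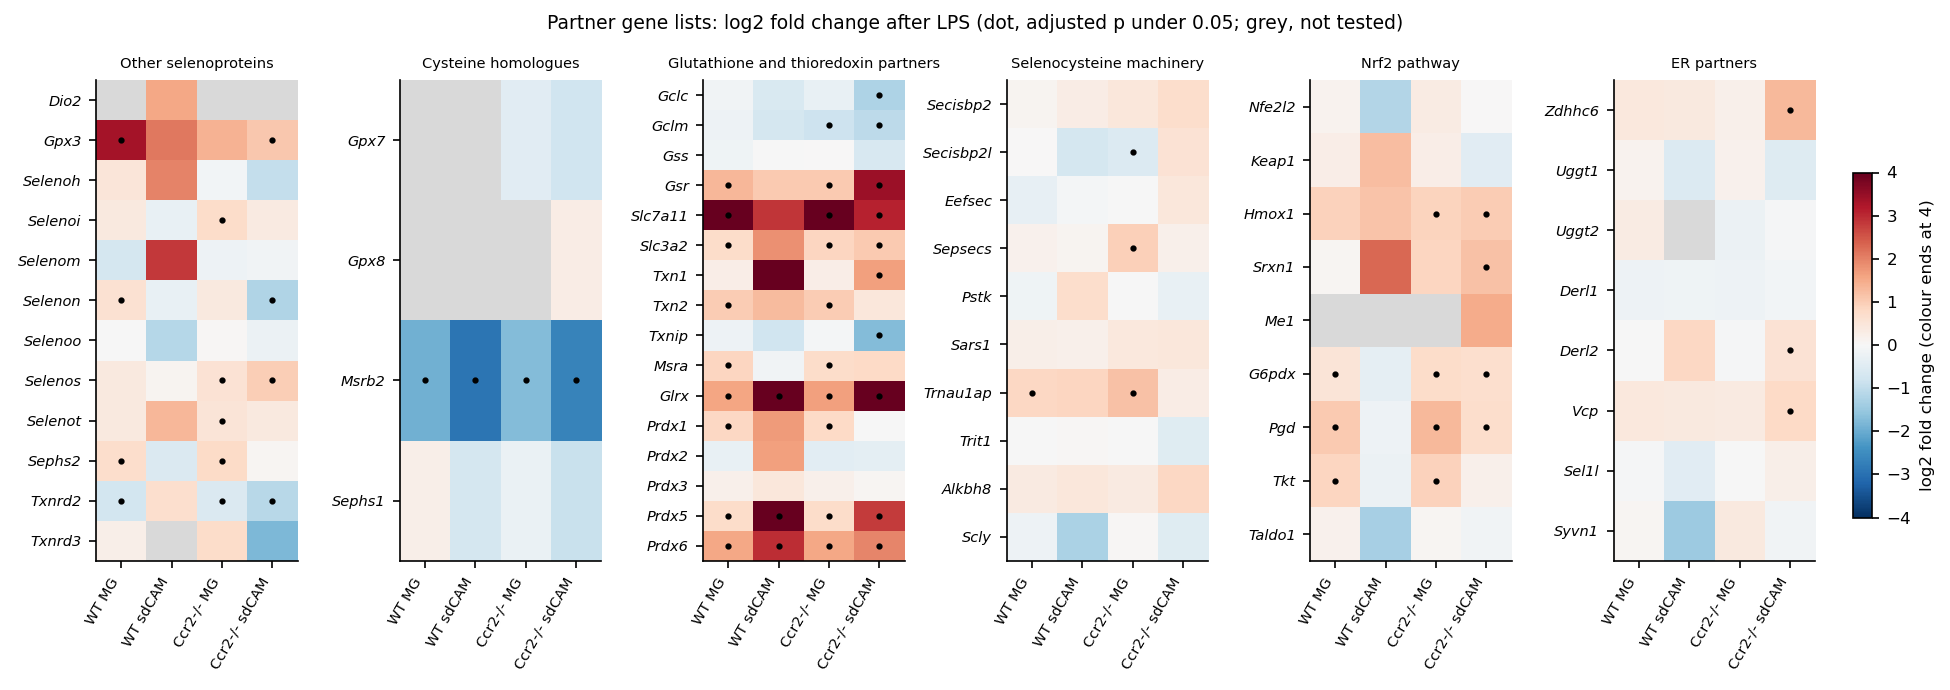
Log2 fold change after LPS of the listed genes in WT and Ccr2-/- MG and sdCAMs, from blue (lower) to red (higher), with the colour scale ending at 4. Dots mark an adjusted p under 0.05 and grey marks genes that were not tested. Msrb2 is lower with a dot in all 4 columns, and Glrx, Prdx5 and Prdx6 are higher with a dot in all 4.

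Since NRF2 acts through the antioxidant response element, the promoters of the members were searched for its core, TGACNNNGC, on both strands. Promoters were the RefSeq windows of GRCm38.p6 from 250 bases before to 50 after each start, and all 8 members had at least 1. The core was found in 1 of 3 Txnrd1 promoters, beginning 92 bases before the start on the minus strand, and in the Selenok promoter, 44 bases before the start on the plus strand. Of all 32851 promoters 12.4% held it. Both stretches are shown in the sense of the gene, with the core in capitals.
Txnrd1, chromosome 10: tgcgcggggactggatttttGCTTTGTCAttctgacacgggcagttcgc
Selenok, chromosome 14: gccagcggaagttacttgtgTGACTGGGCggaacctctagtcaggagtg
After LPS, Txnrd1 rose and Selenok fell in MG and in Ccr2-/- sdCAMs, while the windows of Msrb1 and Selenow, which rose, held no match.

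Of the 8765 genes that averaged 10 CPM or more, the 5 whose group means followed Selenop most closely over the 18 groups were Gpr160 (Pearson r of log2 CPM 0.960), Lipa (0.957), Ptpra (0.956), Gdi2 (0.954) and Adi1 (0.953). Over the 14 groups without reporter sdCAMs their r was 0.935 to 0.941. Of the members, Selenof followed it in part (r = 0.606), and Msrb1 (-0.803) and Txnrd1 (-0.710) ran opposite. The groups share mice, LPS state and scaling, so these values only describe the pattern.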

How the data were processed

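Cells were stored in RNAprotect, cDNA was amplified with a SMARTer ultra low input kit, and Nextera XT libraries were sequenced as single reads on a HiSeq 1000. Per the submitters' processing notes, the authors used bcl2fastq 2.20, STAR 2.7.11a, featureCounts 2.0.8 and DESeq2 1.46.0. The deposited values are whole-number counts per gene symbol in 3 tables, with no normalization and no molecular identifiers, so duplicate reads of the amplification remain in them. The build was named ambiguously and the strand setting is not given in the sources used here, so no coordinates of the counted genes are printed and overlapping genes are uncertain. Reads of Gpx4 and Selenok may be shared with the pseudogene rows Gpx4-ps2 and Selenok-ps1, which reached at most 27.9 and 13.1 CPM.

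All columns were matched to libraries by number, mouse and population, with 0 left over. For Ccr2-/- mice given LPS, title and cell type characteristic were at odds, and the characteristic, which the markers bore out, was used. Counts were fitted with edgeR 4.0.16 in R 4.3.3 (filterByExpr, TMM, quasi-likelihood F test, two-sided, Benjamini-Hochberg over all genes tested, adjusted p under 0.05). The 9 libraries of a cell type and genotype shared a fit for LPS and BLZ945, the 18 of a genotype for cell type and interaction, 12 for reporter sdCAMs and 6 for reporter MG. SE is the log2 fold change divided by the square root of F. The 95% intervals were formed from SE with a normal quantile, so with so few libraries they lean narrow. Library totals were 1705930 to 11330781 counts. Depth limits low genes such as Msrb1 most, and error terms cover spread between mice. Alternatives were DESeq2 1.42.0, its size factors, no filter, the low-count rule of the study, a fold limit, fits of only the libraries compared, the IEG mark as covariate, exchange of 2 columns, the mouse as a block and omission of each library, and, added after seeing the data, BLZ945 and LPS libraries in place of CTL and LPS. Mice pair the cell types because both came from the same animal. Deviations of the libraries of a mouse correlated at 0.00437 to 0.207 in WT and -0.117 to 0.319 in Ccr2-/- mice. Scripts were tested on simulated counts. Named genes were the 8 members, up to 3 higher and 3 lower listed genes per list and comparison with the smallest p and a mean of at least 10 CPM, and the 5 genes most like Selenop. The listed genes followed through several populations, such as Gpx3, Prdx5 and Glrx, meet that rule in at least 1 comparison. The members and lists were chosen with earlier results of these data known. Selenocysteine codons were read from GENCODE M21 transcripts and promoters from RefSeq.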

Additional observations from a re-analysis of the deposited data

Results flagged for a closer look

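A pair of tests of the difference itself separated the cell types. In Ccr2-/- mice the fall of Selenop after LPS was larger in sdCAMs than in MG, with an interaction of -1.31 ± 0.21 on the log2 scale (edgeR adjusted p = 3.8e-04) that passed under all 19 alternatives, with values of -1.42 to -1.15. In WT mice Gpx4 was higher after LPS in sdCAMs and not in MG, with an interaction of 4.63 ± 1.06 (edgeR adjusted p = 0.038). It lost the threshold in 9 of 18 alternatives, all of them fits without 1 library, with values of 3.67 to 5.01. The WT sdCAM libraries after CTL and LPS all carried the IEG correction mark. Their short-transcript shares were 26.5 to 32.5%, against 3.05 to 4.04% in WT MG. The interaction was not fitted with the mark as covariate, and the part of the share in it was not tested. Groups of 3 libraries were too small for a test of single outlying samples.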

How the results depend on the processing

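The calls of Selenop in WT MG, Ccr2-/- MG and Ccr2-/- sdCAMs after LPS, between cell types of Ccr2-/- mice, and its interaction there held under every alternative tried. With the mouse as a replicate block, the difference between cell types was 1.41 in Ccr2-/- and 0.26 in WT mice and the interaction -1.32 and -1.71. The block ended the calls named above for Gpx4 and Msrb1 between cell types and brought Gpx1 in Ccr2-/- mice past the threshold of the interaction (-1.23, adjusted p = 0.045), and changed no other member's call. In WT sdCAMs the fall of Selenop was -4.27 to -2.82 without 1 library, and -2.59 (adjusted p = 0.157) with BLZ945 and LPS in place of CTL and LPS, which kept the calls of Selenop, Txnrd1, Selenow and Msrb1 in the other 3 populations but ended those of Selenok in both MG groups, Gpx4 in Ccr2-/- MG (-0.41, adjusted p = 0.15) and Gpx1 and Selenof in Ccr2-/- sdCAMs. In reporter MG the range was -2.43 to -1.64 without 1 library. BLZ945 differences of Selenop, none of which passed, turned sign: -0.14 to 0.14 in WT MG and -0.13 to 0.15 in Ccr2-/- sdCAMs without 1 library, and -0.52 in WT sdCAMs with the IEG mark as covariate. The WT difference between cell types was -0.17 to 0.77 without 1 library. In tdT+ sdCAMs the exchange gave -3.79, and in tdT- sdCAMs it gave -4.54 and median-of-ratios size factors -5.64. Among members that passed no threshold, the sign of small differences also turned without 1 library: Gpx4 in Ccr2-/- sdCAMs after LPS (-0.024 to 0.17), Gpx1 in reporter MG (-0.29 to 0.72), between WT cell types Gpx4 (-0.56 to 0.11), Selenof (-0.17 to 0.34) and Txnrd1 (-0.23 to 0.13), and in the interaction Selenof in WT (-0.14 to 0.54), Selenok (-0.039 to 0.14) and Msrb1 (-0.41 to 0.036) in Ccr2-/- mice. Txnrd1 between WT cell types was 0.042 with median-of-ratios size factors, 0.042 with DESeq2 and 0.0080 in a fit of the libraries compared. Over all genes, the LPS calls in WT sdCAMs numbered 664, against 1655 with DESeq2, 1518 without the filter, 1359 in a fit of the libraries compared, 1142 with the IEG mark as covariate and 137 to 293 without 1 library. For reporter MG they were 118, against 855 with DESeq2, 268 without the filter and 0 to 403 without 1 library. A log2 fold limit of 1 left 1972 of 3643 calls in WT MG and 2243 of 4036 in Ccr2-/- MG, and the block left 1380 of 2291 between WT cell types. The WT interaction had 174 calls, against 91 with the block, 870 with DESeq2, 838 without the filter, 616 in a fit of the libraries compared and 46 to 260 without 1 library, and that of Ccr2-/- mice 1049, against 1582 in a fit of the libraries compared. BLZ945 calls numbered 0 to 9, and 43 to 195 without the filter. Without 1 library they were 0 to 14 in WT MG, 0 to 23 in Ccr2-/- MG (23 without B4f), 0 to 7 in Ccr2-/- sdCAMs and 0 to 788 in WT sdCAMs (788 without mouse 12). The cause was not tested. DESeq2 gave no adjusted p for Gpx4 in WT sdCAMs.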
